A study of Mus musculus with 2 samples.

Results

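Resident macrophages of the gut express a characteristic set of genes, many of them low in monocytes, and 10 of these are described here, out of 32228 genes counted. They were chosen by name and by role, with earlier results of these data known. They are the 3 chains of the complement component C1q (*C1qa*, *C1qb* and *C1qc*), the receptors *Csf1r* and *Cx3cr1* and the lipid carrier *Apoe*. The others are the tetraspanin *Cd63*, the endocytic receptors *Mrc1* and *Cd163*, and the membrane protein *Ms4a7*. Transcripts of the 10 genes were measured by scRNA-seq of live (7-AAD-) CD45+ cells sorted from the colonic lamina propria (LP). There were 2 libraries, 1 from WT mice and 1 from Ring1aKO mice, a knockout of the polycomb gene Ring1a crossed with C57BL/6J. All mice were C57BL/6, 8-10 weeks old by the labels, and all had colitis induced with dextran sulfate sodium (DSS) in the drinking water. The knockout was of the whole body, and the cells of 5 mice were pooled in each library, so single mice cannot be told apart.

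C1q is the recognition molecule of the classical complement pathway. It is built from A, B and C chains, each with a collagen-like stalk and a globular head, and tissue macrophages are a main source of it. In the colon, blood monocytes that express Ly6C enter the LP, gain MHC class II, lose Ly6C and become macrophages, a series known as the monocyte waterfall. CSF1R, the receptor of the growth factors CSF1 and IL-34, is expressed by monocytes and macrophages along the whole series. CX3CR1, the receptor of fractalkine, is kept by resident macrophages of the gut.

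The 3 C1q genes lie side by side on chromosome 4, all on the minus strand (GENCODE vM21, GRCm38). *C1qb* spans 136880129 to 136886187, *C1qc* 136889804 to 136893065 and *C1qa* 136895917 to 136898803. RefSeq promoter windows of 300 bases (GRCm38.p6) are described for 8 of the 10 genes. *C1qa* and *Csf1r* are not among them, so what follows on the windows of single genes does not cover them. Those of *C1qb* (chr4:136886151-136886450, minus strand) and *C1qc* (chr4:136892865-136893164, minus strand) are printed because these adjacent genes were counted together in the same cells. Capitals mark the ETS core GGAAGT, here on the opposite strand as ACTTCC, at base 198 of the *C1qb* window and base 56 of the *C1qc* window.
C1qb: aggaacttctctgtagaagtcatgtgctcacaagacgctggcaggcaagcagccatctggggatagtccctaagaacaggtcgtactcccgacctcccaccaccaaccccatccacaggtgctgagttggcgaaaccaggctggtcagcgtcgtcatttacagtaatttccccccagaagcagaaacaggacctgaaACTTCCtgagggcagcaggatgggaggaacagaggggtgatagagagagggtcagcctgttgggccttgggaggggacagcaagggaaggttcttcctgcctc
C1qc: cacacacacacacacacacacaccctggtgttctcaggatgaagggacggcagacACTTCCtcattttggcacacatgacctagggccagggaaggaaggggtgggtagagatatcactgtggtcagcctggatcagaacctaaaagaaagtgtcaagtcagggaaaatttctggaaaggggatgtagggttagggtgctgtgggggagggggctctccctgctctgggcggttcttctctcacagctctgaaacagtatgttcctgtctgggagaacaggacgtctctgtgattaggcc
The ETS family includes the myeloid factor PU.1. This core, searched on both strands, was held by 23.8% of all 32851 windows in the table and by windows of *C1qb*, *C1qc*, *Mrc1*, *Cd63* and *Ms4a7*. The TGCTGAC element of the MAF factors, also searched on both strands, was in 4.67% of all windows and in none of the windows of the described genes. These letters describe the windows and show no binding.

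The libraries held 74414511 unique molecular identifiers (UMIs, 1 per captured transcript) for WT and 81862096 for Ring1aKO. Barcodes were kept with at least 1000 UMIs, at least 500 genes and under 5% mitochondrial UMIs, which left 6005 and 7918 cells, with 11 barcodes in both libraries and 0 of them myeloid in both. Myeloid cells were those with *Lyz2* plus *Csf1r* at 0.2% of their UMIs or more, no *Cd3e*, at most 1 *Cd79a* UMI and *Jchain* under 1%, after dendritic cells and neutrophils had been set apart by their own markers. They numbered 971 (16.2% of kept cells) in the WT library and 388 (4.90%) in the Ring1aKO library, with a median of 9621 and 7136.5 UMIs. All 8 monocyte and macrophage check markers were found in both, with a summed level of 19647 and 20191 UMIs per 1000000 UMIs of the class (CPM). The gate gene *Lyz2* was among them, at 9750 and 8450 CPM, so this check is not independent of the gate. Plasma cell check markers summed to 2450 and 3727 CPM in the same cells, B cell markers to 10.4 and 34.9 CPM and T cell markers to 17.4 and 28.1 CPM, and their part in the results was not tested. *Ring1*, the gene that encodes Ring1a, was counted in both libraries, at 13.4 and 11.8 CPM over kept cells. Reads at the 3′ end say nothing of a deletion elsewhere in the gene, so the genotype rests on the labels. With 1 library per genotype there were no replicates and no test was possible. Genotype and library cannot be told apart, and the 95% intervals given (exact Poisson for levels, exact Clopper-Pearson for shares, exact given the counts for ratios of levels, a normal approximation on the log scale for ratios of shares) cover counting error only.

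The C1q genes were higher in myeloid cells of the library labelled Ring1aKO. *C1qa*, which encodes the A chain, had 3271 UMIs in WT cells and 2702 in Ring1aKO cells. In that order, kept below, its CPM was 368 (355 to 380) and 1014 (976 to 1053), a log2 ratio of Ring1aKO over WT of 1.46 (1.39 to 1.54). *C1qb* (B chain) was at 449 CPM (435 to 463) and 1158 CPM (1117 to 1199), a log2 ratio of 1.37 (1.30 to 1.44). *C1qc* (C chain) was at 272 CPM (262 to 283) and 668 CPM (637 to 700), a log2 ratio of 1.29 (1.21 to 1.38). In each of the 3 genes the interval of 1 library lay wholly above that of the other. Summed over the chains, C1q was at 1089 and 2839 CPM, 2.61-fold higher, a log2 ratio of 1.38 (1.34 to 1.43). That ratio was 1.39 with immunoglobulin UMIs left out and 1.41 with the cell-free profile subtracted.

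The mix of chains was similar. Of all C1q UMIs in myeloid cells, *C1qa* gave 33.8% (32.8 to 34.7) and 35.7% (34.6 to 36.8), *C1qb* 41.2% and 40.8%, and *C1qc* 25.0% and 23.5%. These are shares of UMIs counted near transcript ends, not levels per length. In cell-free barcodes, those with under 100 UMIs, *C1qb* also gave the largest share, 42.9% and 44.2%, and *C1qc* the smallest, 20.7% in both. At an equal depth of 2000 UMIs per cell, *C1qa* and *C1qb* were found in the same cell in 137 of 915 WT cells, against 36.4 if they had been found independently, and in 128 of 346 Ring1aKO cells, against 59.1.

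Of the receptors, *Cx3cr1* was higher and *Csf1r* nearly level. *Csf1r* had 4641 and 1512 UMIs in myeloid cells, or 521 CPM (507 to 537) and 567 CPM (539 to 597), a log2 ratio of 0.12 (0.04 to 0.21). *Csf1r* was part of the gate, so its level is not independent of how the cells were chosen, and with *Lyz2* alone as the gate its log2 ratio was 0.06. *Csf1r* overlaps *Hmgxb3* on the opposite strand. *Cx3cr1* was at 40.4 CPM (36.4 to 44.9) and 63.4 CPM (54.2 to 73.7), a log2 ratio of 0.65 (0.38 to 0.92). The *Cx3cr1* span (chromosome 9, 119901616 to 120069879, minus strand) overlaps 9 other annotated genes on both strands, *Wdr48* and *Csrnp1* among them, so its counts are less certain.

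*Apoe*, which encodes the lipid carrier apolipoprotein E, and *Cd63*, a tetraspanin of late endosomes and lysosomes, had the largest ratios among the members counted at least 100 times. *Apoe* (chromosome 7, 19696109 to 19699188, minus strand) had 15721 and 17378 UMIs, or 1766 CPM (1739 to 1794) and 6521 CPM (6424 to 6619), 3.69-fold higher and a log2 ratio of 1.88 (1.85 to 1.92). *Cd63* (chromosome 10, 128900989 to 128912822, plus strand) was at 69.1 CPM (63.7 to 74.8) and 249 CPM (230.2 to 268), a log2 ratio of 1.85 (1.69 to 2.01). For *Apoe* the difference was not limited to myeloid cells: it was at 484 and 858 CPM in B cells, 30.1 and 39.7 CPM in T cells, and 563 and 861 CPM in cell-free barcodes. Subtracting the cell-free profile at 2.57% and 4.45% of the UMIs, shares set by *Igha* and *Igkc*, left 7 members at least 2-fold higher, beside 2.09% of 6758 genes.

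The endocytic receptors were also higher in myeloid cells. *Mrc1*, the mannose receptor CD206 (chromosome 2, 14229392 to 14332057, plus strand), was at 65.7 CPM (60.5 to 71.3) and 162 CPM (147 to 178), a log2 ratio of 1.30 (1.12 to 1.48). *Cd163*, the haemoglobin scavenger receptor (chromosome 6, 124304656 to 124330527, plus strand), had 9 UMIs in 5 WT cells and 48 UMIs in 12 Ring1aKO cells, or 1.01 CPM (0.46 to 1.92) and 18.0 CPM (13.3 to 23.9). Its log2 ratio was 4.03 (3.11 to 5.37), but it rested on few cells, since 5 cells held 79.2% of the *Cd163* UMIs of the library labelled Ring1aKO. *Ms4a7*, of the MS4A membrane protein family (chromosome 19, 11321039 to 11336146, minus strand), was at 73.4 CPM (67.8 to 79.2) and 166 CPM (151 to 182), a log2 ratio of 1.18 (1.00 to 1.36).

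**Figure D1:**
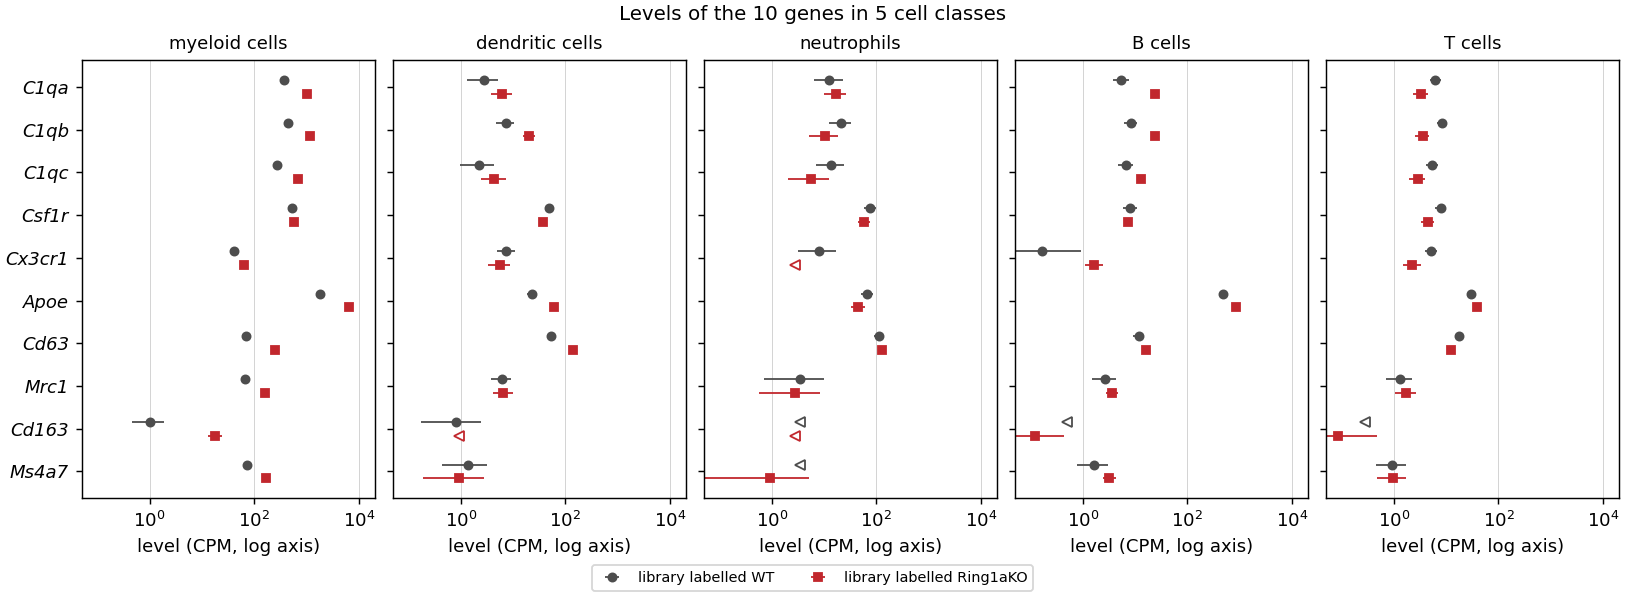
Levels (CPM, log axis) of the 10 genes in 5 cell classes, with circles for the library labelled WT, squares for the library labelled Ring1aKO, lines for exact 95% Poisson intervals and open triangles for genes with no UMI, drawn at the level of 3 counts. *C1qa* lay at 368 and 1014 CPM in myeloid cells and under 30 CPM in every other class shown.

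Of the 10 genes, 9 reached 100 UMIs over both libraries in myeloid cells and *Cd163* did not. Of the 9, 7 were at least 2-fold higher in the library labelled Ring1aKO and 0 were at least 2-fold lower. Over the 6758 genes that reached the same count, 1.78% were at least 2-fold higher and 4.51% at least 2-fold lower, with a median log2 ratio of -0.13. The median of the 9 members was 1.30. Since the members were chosen with earlier results of these data known, these counts are descriptions.

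**Figure D2:**
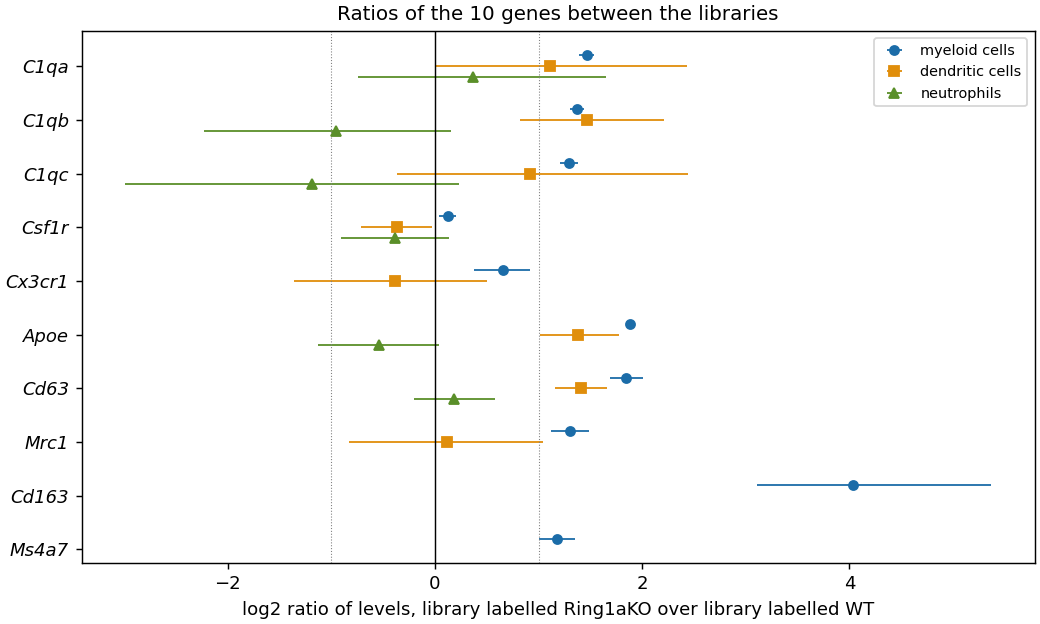
Log2 ratio of the level in the library labelled Ring1aKO over that in the library labelled WT for each gene in myeloid cells (circles), dendritic cells (squares) and neutrophils (triangles), with lines for 95% intervals from the counts and dotted lines at a fold of 2. Points are drawn where both libraries held more than 3 UMIs. In myeloid cells *Csf1r* lay near 0 and *Cd163* farthest right, and *Csf1r* lay left of 0 in dendritic cells.

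The share of cells with C1q was compared at equal depth, with each cell thinned at random to 2000 UMIs. This left out 56 WT and 42 Ring1aKO myeloid cells that were shallower. C1q, taken as at least 2 UMIs over the 3 genes, was found in 201 of 915 WT cells, 22.0% (19.3 to 24.8), and in 148 of 346 Ring1aKO cells, 42.8% (37.5 to 48.2). The log2 ratio of the shares was 0.96 (0.71 to 1.21). The background in cells that should lack C1q was 0.292% and 0.742% in B cells (median 4346.5 and 4438 UMIs before thinning) and 0.391% and 0.124% in T cells (median 5853 and 5675 UMIs). B and T cells were gated with *Lyz2* plus *Csf1r* under 0.2% of their UMIs, so barcodes rich in these genes were left out beforehand. This background is thus not independent of the gate. Without thinning, at least 1 C1q UMI was found in 35.0% and 55.2% of myeloid cells, against 4.17% and 4.19% of B cells. Cells with all 3 chains made up 12.9% and 32.7% of the thinned myeloid cells.

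C1q was unevenly spread over the cells. No C1q UMI was found in 73.6% of the WT and 52.9% of the Ring1aKO cells, and 1 UMI in 4.48% and 4.34%. At least 10 UMIs were found in 9.07% (7.29 to 11.1) and 25.4% (20.9 to 30.4), and these cells held 72.9% and 83.2% of the C1q UMIs. Among cells with C1q the mean was 10.4 and 14.0 UMIs, a log2 ratio of 0.42 (0.33 to 0.51), which is less than the log2 ratio of 1.38 over the whole class.

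**Figure D3:**
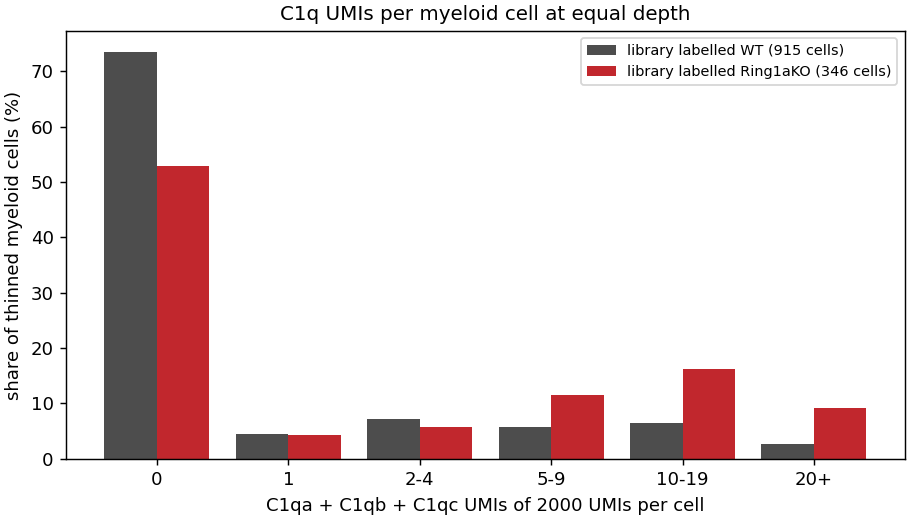
Share of myeloid cells (%) by the number of C1qa, C1qb and C1qc UMIs found per cell after thinning to 2000 UMIs, for 915 cells of the library labelled WT (dark) and 346 of the library labelled Ring1aKO (red). The cells with no C1q made up 73.6% and 52.9%, and the bars from 5 UMIs upward were higher for Ring1aKO.

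Cells with C1q differed less in number than myeloid cells without it. A first denominator of 3987 and 3299 kept cells left out B cells and *Jchain*-rich cells. It also left out further barcodes, more of them in Ring1aKO, outside the B cell class (1032 and 2985 cells) and the barcodes with *Jchain* at 1% or more (740 and 734). Of these cells, those with C1q were 5.04% (4.38 to 5.77) in WT and 4.49% (3.81 to 5.25) in Ring1aKO. The log2 ratio was -0.17 (-0.47 to 0.13). Myeloid cells without C1q were 17.9% (16.7 to 19.1) and 6.00% (5.22 to 6.87) of the same cells, a log2 ratio of -1.58 (-1.79 to -1.36). Measured against all kept cells, of which B cells were 17.2% and 37.7%, cells with C1q were 3.35% and 1.87%, a log2 ratio of -0.84 (-1.14 to -0.54). Myeloid cells without C1q had a log2 ratio of -2.25 (-2.47 to -2.03) against all kept cells. The near-equal share of cells with C1q thus held only for the first denominator. Its dependence on the further barcodes left out of that denominator was not tested. Summed over all kept cells of every class, the C1q level was 229 and 223 CPM, a log2 ratio of -0.04 (-0.07 to -0.0045). Over the same cells the other members lay on both sides of 0, with log2 ratios of -1.32 (-1.38 to -1.25) for *Csf1r*, -0.66 (-0.84 to -0.49) for *Cx3cr1*, -0.31 (-0.45 to -0.18) for *Ms4a7* and -0.25 (-0.38 to -0.11) for *Mrc1*, and 0.44 (0.37 to 0.51) for *Cd63*, 0.80 (0.77 to 0.82) for *Apoe* and 1.61 (0.91 to 2.48) for *Cd163*. The share of C1q that lay in gated myeloid cells was 68.5% and 49.2%. Barcodes with *Jchain* at 1% or more held 12.9% and 19.6% of the C1q UMIs. Barcodes with *Lyz2* plus *Csf1r* under 0.2% held 9.38% and 9.13%. Some cells with C1q were thus not among the myeloid cells described. Those with C1q at 0.1% of their UMIs numbered 45 and 54 with *Lyz2* plus *Csf1r* under 0.2%, and 20 and 32 with *Jchain* at 1% or more. A further 10 and 31 were left out for *Cd79a* of 2 UMIs or more, and 10 and 14 for *Cd3e*. Each of these counts was higher in Ring1aKO, and their effect on the comparison of cells with C1q was not tested. Doublets were kept, since no step to remove them was used.

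The other members were set apart by C1q at the same depth. *Ms4a7* was found mostly beside C1q, with a mean of 0.68 and 0.77 UMIs in cells with C1q and 0.03 and 0.02 UMIs in cells with no C1q UMI. Its log2 ratio among cells with C1q was 0.19 (-0.18 to 0.56), so within these cells the difference between libraries was not detectable at this depth. *Cx3cr1* was alike, with a log2 ratio of 0.29 (-0.33 to 0.90) among cells with C1q. *Mrc1* differed also among them, at 0.37 and 0.81 UMIs per cell and a log2 ratio of 1.13 (0.71 to 1.58), and so did *Cd63*, at 0.68 and 1.16 UMIs and 0.77 (0.44 to 1.11). In cells with no C1q UMI *Cd63* differed too, at 0.04 and 0.14 UMIs per cell and a log2 ratio of 1.93 (1.09 to 2.79), from 25 and 26 UMIs.

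*Apoe* likewise differed both with and without C1q. In cells with C1q it had a mean of 12.1 and 22.8 UMIs, a log2 ratio of 0.91 (0.84 to 0.99). In cells with no C1q UMI the mean was 1.67 and 6.26 UMIs, a log2 ratio of 1.91 (1.79 to 2.03). *Apoe* was found in 58.3% and 91.0% of all thinned myeloid cells. *Csf1r* was spread over both kinds of cell, with 1.20 and 1.55 UMIs beside C1q and 0.97 and 0.99 UMIs without it.

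Co-detection with *Chil3* and *Thbs1*, genes of the monocyte list below, asked whether they and C1q were found in the same cells. Neither stands for newly arrived monocytes alone. At 2000 UMIs *Ly6c2*, which encodes Ly6C, was found in 72.3% and 31.0% of cells with *Chil3* and in 66.8% and 25.8% of those with *Thbs1*. *Chil3* encodes the chitinase-like protein Ym1, and *Thbs1* the matrix protein thrombospondin 1. At 2000 UMIs *Chil3* was found in 52.9% and 48.6% of myeloid cells and *Thbs1* in 82.0% and 80.6%. C1q was found in 41 of 484 WT cells with *Chil3*, 8.47% (6.15 to 11.3), and in 160 of 431 without it, 37.1% (32.5 to 41.9). In the library labelled Ring1aKO the shares were 23 of 168, 13.7% (8.88 to 19.8), and 125 of 178, 70.2% (62.9 to 76.8). The difference between cells with and without *Chil3* was -28.7 percentage points in WT and -56.5 in Ring1aKO, and the intervals of the shares did not overlap in either library. Such differences also depend on how common C1q was in each library. Cells with both C1q and *Chil3* were 0.39 (WT) and 0.32 (Ring1aKO) of the number expected if they had been found independently.

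C1q was also found less often beside *Thbs1*. It was found in 17.6% (14.9 to 20.5) of WT cells with *Thbs1* and 41.8% (34.2 to 49.7) of those without, a difference of -24.2 points. In the library labelled Ring1aKO it was found in 35.8% (30.2 to 41.8) and 71.6% (59.3 to 82.0), a difference of -35.8 points. Cells with both C1q and *Thbs1* were 0.80 (WT) and 0.84 (Ring1aKO) of the number expected if found independently, so the larger point difference in Ring1aKO was not a larger relative one. The difference by *Chil3* in WT had an interval of -33.8 to -23.5 points and that by *Thbs1* -32.2 to -16.2, which overlapped, and in Ring1aKO they were -65.0 to -48.0 and -48.0 to -23.6 (normal approximation). *Thbs1* was so widespread that most cells with C1q still held a partner gene: 70.1% (63.3 to 76.4) and 67.6% (59.4 to 75.0) of cells with C1q had *Chil3* or *Thbs1*. Of cells with neither partner, 47.6% (38.7 to 56.7) and 82.8% (70.6 to 91.4) had C1q, and of cells with both, 7.19% (4.97 to 10.0) and 14.5% (9.40 to 20.9). *Chil3* alone was found in 39 and 9 cells, of which 9 and 0 had C1q, and the exact interval of the latter reaches 33.6%.

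**Figure D4:**
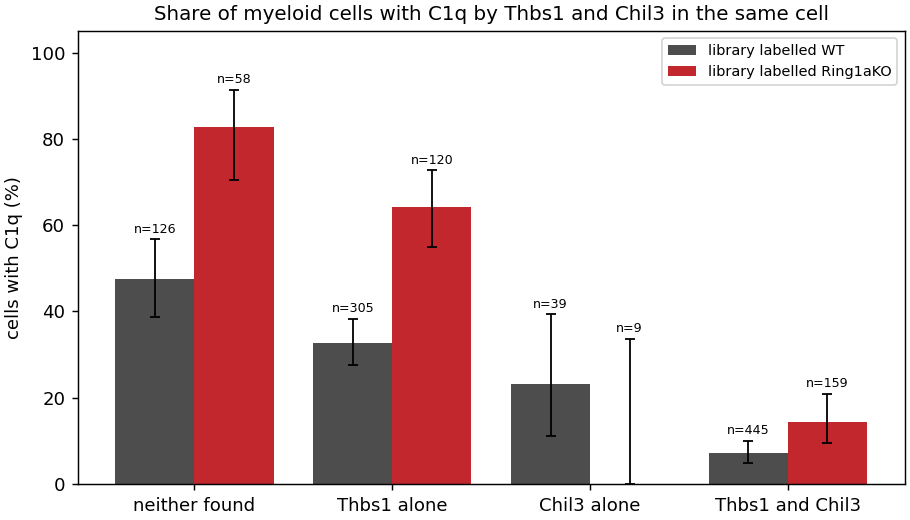
Share of thinned myeloid cells with C1q (%) by whether Thbs1 and Chil3 were found in the same cell, for the libraries labelled WT (dark) and Ring1aKO (red). Bars start at 0, lines are exact 95% binomial intervals and n is the number of cells. The shares ran from 47.6% and 82.8% with neither gene to 7.19% and 14.5% with both.

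Other members followed C1q to different degrees. In the library labelled Ring1aKO *Ms4a7* was found in 2.98% (0.97 to 6.81) of cells with *Chil3* and 30.3% (23.7 to 37.7) of those without, *Mrc1* in 8.93% and 32.6%, and *Cd63* in 10.7% and 36.0%. In the WT library the same shares were 3.31% and 14.2% for *Ms4a7*, 5.17% and 11.8% for *Mrc1*, and 5.58% and 12.99% for *Cd63*. *Cd163* was found in 0 of 484 and 0 of 168 cells with *Chil3*, for which the exact intervals reach 0.759% and 2.17%, and in 2 of 431 (0.464%) and 8 of 178 (4.49%) cells without it. With 1.06 and 3.88 joint cells expected if the genes were independent, these counts were few, and in WT too few to show a separation. In Ring1aKO the difference was -4.49 points (-7.54 to -1.45, normal approximation). The exact intervals of the 2 Ring1aKO shares overlapped, since that of cells without *Chil3* began at 1.96%. *Apoe* was found in most cells on both sides in the library labelled Ring1aKO, 89.9% (84.3 to 94.0) with *Chil3* and 92.1% (87.2 to 95.6) without, and the intervals overlapped. In WT it was found in 53.5% (49.0 to 58.0) and 63.6% (58.8 to 68.1), a difference of -10.1 points, and the intervals did not overlap. *Csf1r* was found in 57.2% and 61.5% of WT cells and 57.7% and 70.2% of Ring1aKO cells.

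The members were then followed along the monocyte series, with thinned cells split by *Ly6c2* (found or not) and MHC class II (*H2-Aa*, *H2-Ab1* and *H2-Eb1*, at least 5 UMIs or fewer). Neither split used a member, and 101 WT and 27 Ring1aKO cells lay near the MHC class II limit, at 3 to 7 UMIs. The groups were of unequal size: cells with *Ly6c2* and low MHC class II made up 35.1% of the WT cells and 15.9% of the Ring1aKO cells, and cells with neither 11.4% and 37.0%. *Ly6c2* itself was found in 64.4% and 21.4% of all thinned cells, so a group need not hold the same stage in both libraries. Cells with neither had a mean of 2.88 and 6.52 *Chil3* UMIs and 15.1 and 15.3 *Thbs1* UMIs. C1q was lowest in *Ly6c2* cells with low MHC class II, at a mean of 0.13 and 0.04 UMIs per cell, and highest in cells with MHC class II and no *Ly6c2*, at 7.20 (222 cells) and 10.6 (144 cells), a log2 ratio of 0.56 (0.46 to 0.66). Cells with *Ly6c2* and MHC class II had 1.67 and 6.11 UMIs, a log2 ratio of 1.88 (1.56 to 2.17) that rested on 19 Ring1aKO cells. In cells with neither, C1q was at 0.51 UMIs (104 cells) and 3.38 UMIs (128 cells), a log2 ratio of 2.71 (2.32 to 3.17).

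*Apoe* was higher in the library labelled Ring1aKO in all 4 groups, with log2 ratios of 1.72 (1.49 to 1.95) in *Ly6c2* cells with low MHC class II, 2.43 (2.23 to 2.63) in those with high, 0.98 (0.90 to 1.07) in cells with MHC class II alone and 2.02 (1.82 to 2.23) in cells with neither. *Mrc1* had a mean of 0.06 and 0.28 UMIs in cells with neither and 0.33 and 0.63 UMIs with MHC class II alone, log2 ratios of 2.10 (1.02 to 3.82) and 0.94 (0.48 to 1.41). *Cd63* had log2 ratios of 1.04 (0.27 to 1.96) and 0.91 (0.55 to 1.27) in the same groups. *Ms4a7* was at 0.51 and 0.70 UMIs in cells with MHC class II alone, a log2 ratio of 0.45 (0.05 to 0.85). *Csf1r* was found throughout, from 0.82 to 1.38 UMIs in WT and from 0.67 to 1.60 UMIs in Ring1aKO.

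**Figure D5:**
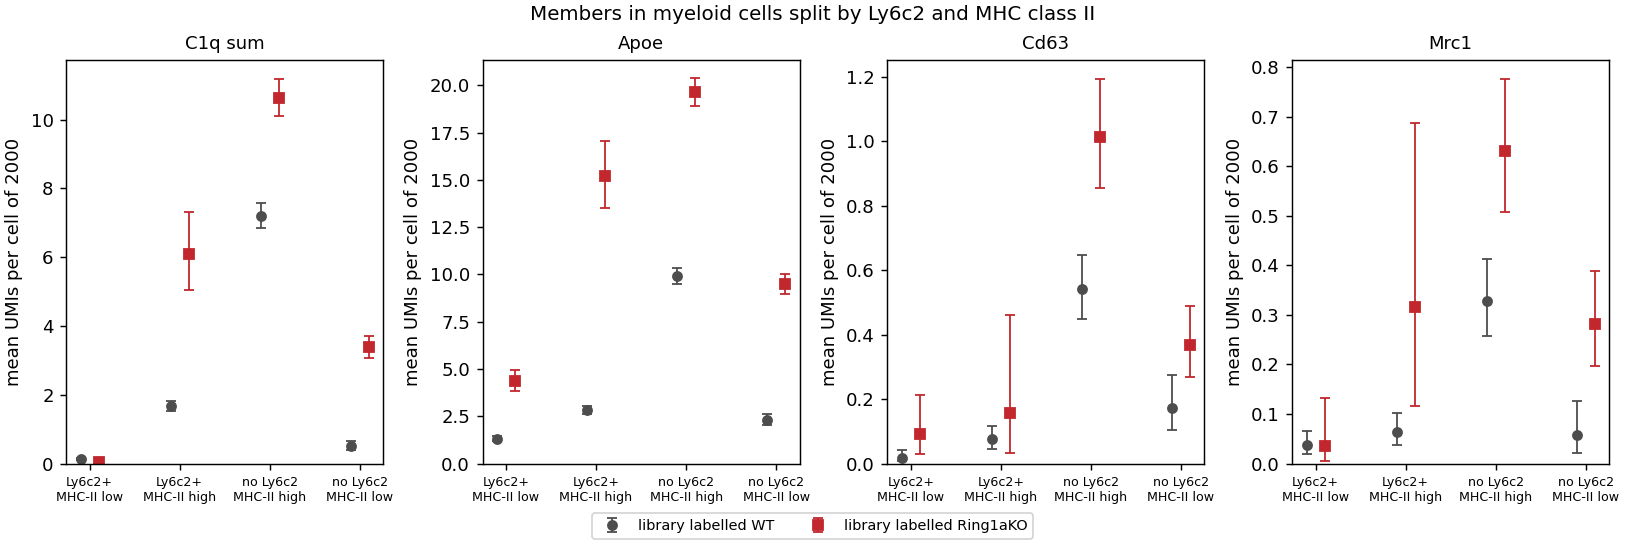
Mean UMIs per cell, of 2000, of C1q (sum of the 3 genes), Apoe, Cd63 and Mrc1 in thinned myeloid cells split by Ly6c2 and MHC class II, with circles for the library labelled WT, squares for the library labelled Ring1aKO and lines for exact 95% Poisson intervals. C1q ranged from 0.13 and 0.04 UMIs in Ly6c2 cells with low MHC class II to 7.20 and 10.6 in cells with MHC class II alone.

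Dendritic cells held little C1q. They numbered 213 and 199 and were gated on MHC class II and dendritic genes such as *Flt3* and *Xcr1*. All 8 dendritic check markers were found in both libraries, but most of them were gate genes. Their summed level was 19508 and 25833 CPM, against 7030 and 7667 CPM in myeloid cells. *Cd74*, the MHC class II invariant chain gene, gave 6962 and 7508 CPM of the myeloid sum. In B cells the same sum was 11786.9 and 17402.5 CPM, so it is not particular to dendritic cells. C1q was at 12.2 CPM (8.83 to 16.3) and 30.9 CPM (25.1 to 37.7), and 1 cell held 61.4% of these UMIs in the WT library and 44.4% in the other. *C1qb* gave 59.1% (43.2 to 73.7) and 65.7% (55.4 to 74.9) of them, above its share in myeloid cells. *Cd63* was at 52.2 CPM (45.0 to 60.2) and 139 CPM (126 to 152), a log2 ratio of 1.41 (1.16 to 1.66), and was found in 6.76% and 17.4% of thinned dendritic cells. *Apoe* was at 23.2 and 60.9 CPM, a log2 ratio of 1.38 (1.02 to 1.78), with 50.0% and 59.5% of its UMIs in 5 cells. *Csf1r* was lower, at 48.4 CPM (41.5 to 56.1) and 37.5 CPM (31.1 to 44.8), a log2 ratio of -0.36 (-0.71 to -0.02). Of the 3 members that reached 100 UMIs, 2 were at least 2-fold higher and 0 at least 2-fold lower, beside 0.877% and 4.25% of 5700 genes. *Ms4a7*, *Mrc1*, *Cd163* and *Cx3cr1* had at most 27 UMIs in either library, and their intervals all held 0.

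Neutrophils (185 and 211 cells) held *Cd63*, *Csf1r* and *Apoe* and few UMIs of the other members. All 7 neutrophil check markers were found, but most were gate genes, and all 7 were also found in myeloid cells. Their summed level was 152122 and 215227 CPM in neutrophils and 718 and 739 CPM in myeloid cells. *Cd63* was at 111 CPM (89.6 to 135) and 126 CPM (106 to 149), a log2 ratio of 0.19 (-0.20 to 0.58). *Csf1r* was at 76.0 CPM (58.8 to 96.7) and 58.4 CPM (44.8 to 74.8), a log2 ratio of -0.38 (-0.91 to 0.14). *Apoe* was at 65.7 and 45.2 CPM, a log2 ratio of -0.53 (-1.12 to 0.04). None of these 3 differed beyond counting error at this depth, and none was 2-fold higher or lower, beside 2.22% and 6.71% of 1669 genes. C1q had 41 and 35 UMIs, and 80.5% of the WT UMIs lay in 1 cell. *Cx3cr1* had 7 UMIs, 5 of them in 1 cell, and 0 UMIs, which allows up to 2.82 CPM (3 counts). *Cd163* had 0 UMIs in both libraries, which allows up to 3.46 and 2.82 CPM.

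Across the classes the C1q level in the WT library ran from myeloid cells (1089 CPM) through neutrophils (47.2), B cells (20.4) and T cells (20.1) to dendritic cells (12.2). B cells and T cells did not differ beyond their intervals. In the library labelled Ring1aKO the order was myeloid cells (2839 CPM), B cells (60.7), neutrophils (33.0), dendritic cells (30.9) and T cells (9.68), and neutrophils and dendritic cells overlapped. In B cells C1q was at 20.4 and 60.7 CPM, a log2 ratio of 1.56 (1.30 to 1.85), and in T cells at 20.1 and 9.68 CPM, a log2 ratio of -1.04 (-1.39 to -0.71). Both lay below the cell-free level of 287 and 268 CPM, which is a level within cell-free RNA and not its share of the UMIs of a cell. For scale, *Igha* was at 2616 and 2599 CPM in B cells, against 69469 and 58438 CPM in cell-free barcodes. All 3 C1q chains were found in 0 of 1028 and 8 of 2963 thinned B cells. How much of the C1q in B and T cells was cell-free RNA was not tested.

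The other members had other orders. *Apoe* was highest in myeloid cells and next in B cells in both libraries, and lower in the rest, where T cells and dendritic cells overlapped in WT (30.1 and 23.2 CPM) and neutrophils overlapped with both dendritic cells and T cells in Ring1aKO. *Cd63* was highest in neutrophils in the WT library (111 CPM, against 69.1 in myeloid cells) and highest in myeloid cells in the library labelled Ring1aKO (249 CPM), where dendritic cells (139) and neutrophils (126) overlapped. *Csf1r* ran from myeloid cells through neutrophils and dendritic cells to B cells (8.06 and 7.39 CPM) and T cells (7.83 and 4.496 CPM). B and T cells overlapped in WT, and neutrophils and dendritic cells in Ring1aKO. *Csf1r* was part of the gates of myeloid, B and T cells, so the places of these classes in its order are not independent of the gates. *Ms4a7* and *Mrc1* were at most 3.24 and 6.56 CPM in the 4 other classes.

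The genes whose pattern over single myeloid cells was most like that of C1q were ranked among 6625 genes found in at least 5% of the myeloid cells of each library. The measure was the smaller of the Pearson correlations of both libraries (971 and 388 cells, log2 of UMIs per 10000 plus 1). Cells share a library and differ in depth, so these values are descriptions. *Ms4a7* came first (r = 0.67 and 0.63), then *H2-Eb1* (0.60 and 0.61), *Cd81* (0.64 and 0.58), *Apoe* (0.58 and 0.63), *Cd63* (0.59 and 0.58), *H2-Aa* (0.56 and 0.63), *H2-Ab1* (0.55 and 0.59), *Cd74* (0.54 and 0.63), *Aif1* (0.48 and 0.49) and *Pf4* (0.48 and 0.59). *Mrc1* ranked 11, *Cx3cr1* 27 and *Csf1r* 193. Least like C1q were *S100a4* (-0.68 and -0.69), *S100a6* (-0.66 and -0.69), *Plac8* (-0.67 and -0.65), *Tmsb10* (-0.63 and -0.68) and *Alox5ap* (-0.60 and -0.62). The genes most like C1q differed between libraries by unequal amounts: *Pf4*, a platelet factor 4 chemokine, was at 53.5 and 333 CPM, whereas the MHC class II genes *H2-Eb1* and *H2-Aa* had log2 ratios of 0.12 (0.08 to 0.16) and 0.13 (0.10 to 0.17) and *H2-Ab1* -0.01 (-0.04 to 0.03).

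Among other complement genes, 14 of 25 reached 100 UMIs in myeloid cells, and 1 was at least 2-fold higher and 1 at least 2-fold lower, with a median log2 ratio of 0.08. The anaphylatoxin receptors had the highest ratios: *C5ar1* was at 198 and 532 CPM, a log2 ratio of 1.43 (1.33 to 1.53), *C3ar1* had 0.97 (0.74 to 1.21) and *C5ar2* 0.87 (0.40 to 1.30). The lowest were *Cfb*, factor B of the alternative pathway, at 130 and 49.2 CPM with a log2 ratio of -1.39 (-1.67 to -1.14), and *C3*, the central component, at 266 and 141 CPM with -0.91 (-1.07 to -0.76). C1q and *C3* thus lay on opposite sides of 0.

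Of 28 other genes of resident macrophages, 22 were counted often enough, and 6 were at least 2-fold higher and 0 at least 2-fold lower, with a median of 0.68. The highest were *Pf4*, with a log2 ratio of 2.64 (2.48 to 2.80), *Il10*, an anti-inflammatory cytokine, with 2.32 (2.21 to 2.43), at 125 and 624 CPM, and *Mertk*, a receptor for dying cells, with 2.29 (1.71 to 2.90). Of the *Pf4* UMIs, 46.0% in WT and 34.4% in Ring1aKO lay in 5 cells. The lowest were *Fcgr1*, the high-affinity IgG receptor, with -0.64 (-0.87 to -0.43), *Aif1* with -0.19 and the lysosomal gene *Cd68* with 0.04 (-0.09 to 0.17). All 12 monocyte genes were counted, and 1 was at least 2-fold higher and 5 at least 2-fold lower, with a median of -0.55. *Ly6c2* was at 1120 and 193 CPM, a log2 ratio of -2.53 (-2.67 to -2.41), and *Plac8* had -2.10 (-2.15 to -2.05). *Chil3* went the other way, at 991 and 2281 CPM with 1.20 (1.16 to 1.25), and *Fn1* had 0.56 and *Thbs1* 0.27.

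The relatives of single members lay on both sides of 0. In the MS4A family 3 of 7 genes were at least 2-fold lower and 1 higher, with a median of -0.59. *Ms4a8a* had a log2 ratio of 1.67 (1.42 to 1.92), and *Ms4a4a* had 158 and 5 UMIs, a log2 ratio of -2.99 (-4.88 to -1.99). *Ms4a4c* had -1.30 and *Ms4a4b* -1.04. Of 9 tetraspanins counted often enough only *Cd81* was 2-fold higher, with 1.40 (1.17 to 1.62), and the lowest was *Tspan13*, with -0.40 (-0.54 to -0.26). Of 11 genes of lipid handling only *Abca1*, the cholesterol exporter, was 2-fold higher, with 1.28 (1.15 to 1.41), and its relative *Abcg1* had -0.57 (-0.99 to -0.20). Of 7 scavenger and lectin receptors 2 were 2-fold higher, *Stab1* with 1.61 (1.33 to 1.89) and *Cd209a* with 1.36 (0.80 to 1.89), and *Scarb1* had -0.60 (-1.03 to -0.22). Of the 5 ligand genes only *Csf3* was counted often enough, at 46.2 and 134 CPM. The ligands of CSF1R and CX3CR1 were scarce in these cells: *Csf1* had 38 and 18 UMIs, *Il34* 0 and 0, and *Cx3cl1* 0 and 2.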

How the data were processed

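Per the labels, LP cells were sorted and run with the 10x Genomics 3′ v3 kit. The authors deposited unfiltered matrices of raw UMI counts per gene and barcode, without normalization. The submitters' processing notes list Cell Ranger 6.0.2, Seurat and mm39, whereas the paper's methods and the matrix header name other Cell Ranger versions and the methods another build (mm10).

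From these counts, barcodes were filtered, gated and summed by class with Python 3.11.15, numpy 2.4.6, scipy 1.17.1 and pandas 2.3.3. Log2 ratios are Ring1aKO over WT, with 1 UMI added to each sum. The fold limit of 2 was applied where a gene had 100 UMIs or more over both libraries. Shares of cells were taken after thinning to 2000 UMIs. Named genes were the members, the highest and lowest ratios of each list and the genes most like C1q. The members and lists were chosen with earlier results of these data known. The ratios were tested on simulated counts. Alternatives changed filters, gates, denominators, depth and limits. With 1 library per group no test was made. Some list genes that the rule names are not reported here.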

Additional observations from a re-analysis of the deposited data

Results flagged for a closer look

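Between classes, several members had ratios of opposite sign. In T cells the log2 ratio of Ring1aKO over WT was -0.91 for *C1qa*, -1.22 for *C1qb*, -0.90 for *C1qc*, -0.79 for *Csf1r*, -1.19 for *Cx3cr1* and -0.46 for *Cd63*, whereas all of these were above 0 in myeloid cells. *Csf1r* had -0.36 in dendritic cells and 0.12 in myeloid cells. These differences between classes were not tested, and C1q in T cells rested on 215 and 112 UMIs. *Csf1r* was part of the gates of both myeloid and T cells, so its values there are not independent of them.

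Barcodes with under 100 UMIs, which hold cell-free RNA, entered no comparison of cells. In them the log2 ratio was 0.61 for *Apoe*, 1.29 for *Cd163* (9 and 21 UMIs) and 0.30 for *Cd63*. Barcodes with *Jchain* at 1% or more, left out of every class, held 19.6% of the C1q UMIs of the library labelled Ring1aKO and 12.9% of those of the WT library.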

How the results depend on the processing

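No member turned direction past a fold of 2 under any alternative. Under all 12, 0 members were at least 2-fold lower, beside 4.15% to 6.24% of the genes compared. With so few members, 0 is near that share. The C1q log2 ratio of 1.38 ranged from 1.10 to 1.65 over 11 alternatives: it was 1.46 with *Lyz2* alone as the gate, 1.65 with the gate at 0.5%, 1.27 with it at 0.05%, 1.26 as a mean over cells and 1.10 in cells with no *Cd79a* and no *Jchain*. The last gate left only 60 and 21 cells. Under it 3 members that still reached 100 UMIs were at least 2-fold higher, in place of 7 (6 to 8 under the others), beside 4.35% of the 689 genes left. Without regard to that count, *C1qa* (1.29), *C1qb* (1.07), *Apoe* (1.34), *Cd63* (1.65), *Mrc1* (1.19), *Cx3cr1* (1.70) and *Cd163* (4.72) had log2 ratios above 1 under it. There the log2 ratio of the share of cells with C1q was 1.38, in place of 0.96. It also gave a difference by *Chil3* in WT of -11.8 points, smaller than that by *Thbs1* (-21.7), and by *Thbs1* in Ring1aKO of -20.0 points, where the gate at 0.5% gave -20.5 and -48.3 points. The gate at 0.05% and the count of members higher were added after seeing the data. With no minimum count, 14.9% of 15233 genes were at least 2-fold higher. *Csf1r* ranged from -0.10 to 0.19 and *Ms4a7* from 0.33 to 1.44. The causes of these shifts were not tested. No paired analysis was possible because only 1 library was made for each genotype. Leaving out a replicate was likewise not possible. *Ms4a7*, *Mrc1* and *Cd163* were counted too rarely in dendritic cells and neutrophils to show a fold of 2.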

Other observations

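Some genes of the resident macrophage list were counted under 100 times in myeloid cells, and their values rest on few cells. *Lyve1*, a hyaluronan receptor of perivascular macrophages, had 0 UMIs in the WT library, which allows up to 0.337 CPM (3 counts), and 28 UMIs in 5 cells of the library labelled Ring1aKO. *Folr2*, a folate receptor of tissue macrophages, had 6 UMIs in 6 cells and 22 UMIs in 9 cells. The growth factor gene *Igf1* had 26 and 41 UMIs, a log2 ratio of 2.38 (1.65 to 3.17), and *Gas6*, a ligand of the MERTK and AXL receptors, 29 and 42 UMIs, a log2 ratio of 2.26 (1.56 to 3.01). *Timd4*, a marker of long-lived gut macrophages, had 6 and 3 UMIs. *Lyve1*, *Folr2*, *Igf1*, *Gas6* and *Timd4* were singled out here after their values were seen.

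*Chil3* and C1q were seldom found in the same cells, and both were higher in myeloid cells of the library labelled Ring1aKO. Among thinned cells with no C1q UMI, *Chil3* had a mean of 2.53 and 7.19 UMIs, a log2 ratio of 1.504 (1.40 to 1.61), and among cells with C1q 0.46 and 0.61 UMIs, a log2 ratio of 0.39 (-0.04 to 0.83). *Ly6c2* was lower among both, with log2 ratios of -2.24 (-2.57 to -1.96) and -3.41 (-4.50 to -2.68).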
